A study of Mus musculus with 4 samples.

Results

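The cytosolic and mitochondrial heat shock genes described here were Hspa1a, Hspa1b, Hspa8, Hsph1, Dnajb1, Hspb1, Hsp90aa1, Hspd1, Hspe1 and Bag3. They were chosen by name: every array probe whose gene name was one of these 10 was taken, whatever its signal. Of the 10 genes 9 had a probe under their own name, with 15 of the 55681 gene probes on the array between them. No probe was named Hspa1b, but the probe named Hspa1a lists the mRNAs of both genes, so its values belong to the pair. Of the 15 probes 14 were well above background on all 4 arrays. The exception was a second Hsp90aa1 probe, made from an expressed sequence tag with no mapped position, which was well above background on 0 arrays.

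The tissue was retina grown in floating culture from mouse induced pluripotent stem cells that carry an Nrl-GFP reporter of rods (3D-retinas, made by the SFEBq aggregation method). Treatment began on differentiation day 23 and the 3D-retinas were harvested on day 25, at the stage where photoreceptor degeneration begins. The groups received 4-hydroxytamoxifen at 5 µM (4-OHT, an active metabolite of the breast cancer drug tamoxifen) together with 400 µM of vitamin E, a lipid-soluble antioxidant; the same dose of 4-OHT plus 200 nM of lutein, a carotenoid of the macula; that dose of 4-OHT alone; and the ethanol vehicle. A group consisted of 24 3D-retinas pooled for 1 array, so differences between arrays have no replicate check and no p-value is given. Neither supplement was analysed here without 4-OHT. A pool of whole 3D-retinas holds several cell types, so that fewer cells of a type and less RNA per cell cannot be told apart.

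Values are relative signals, the processed signal in multiples of the same array's 75th percentile over gene spots, and differences are on the log2 scale. Signals of different probes are not comparable with each other. Between 51.28% and 54.49% of the 59305 gene spots of an array were well above background, and 0 spots were saturated. Each heat shock probe was printed as 1 spot. Probes that were printed as 10 spots gave a spot SD for log2 differences of 0.138 to 0.146, a measure of spot noise alone that leaves out how cultures vary. A difference of at least 2-fold was used as a fixed limit of size. All 7 rod markers (Gnat1, Nrl, Nr2e3, Pde6b, Sag, Cnga1 and Rcvrn) were well above background on each array, as were 6 of 7 Müller glia markers in the vitamin E and vehicle arrays and all 7 in the lutein and 4-OHT arrays.

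As background, heat shock proteins bind unfolded or partly folded proteins and hold, refold or hand them on for degradation. HSP70 proteins work in an ATP-driven cycle in which J-domain proteins deliver substrates and stimulate hydrolysis, and nucleotide exchange factors release them, while HSP90, small heat shock proteins and the mitochondrial chaperonin act on their own sets of clients. Under proteotoxic stress heat shock factor HSF1 binds promoters at heat shock elements, inverted repeats of the unit GAA, and drives the inducible genes of this family. Retinal neurons express both constitutive and inducible members, and photoreceptors depend on chaperones for the folding of their abundant membrane proteins.

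The Hspa1a probe is shown because its signal had the widest range over the 4 arrays among the heat shock genes and because its annotation lists both copies of the inducible HSP70 gene. It lies at chr17:35094199-35094258 on the minus strand of the mm9 build. No mm9 exon or UTR annotation was used.
Hspa1a probe: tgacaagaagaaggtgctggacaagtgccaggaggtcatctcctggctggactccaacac

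Promoter windows, from 250 bases before to 50 bases after the annotated start, were taken from RefSeq on the GRCm38.p6 build. Of the 10 genes 8 had a window, with 11 windows in all; Hspa8 and Hsp90aa1 had none in the table used. Both strands were searched for the letters of a heat shock element, either of 2 units (GAANNTTC or TTCNNGAA) or of 3 units (GAANNTTCNNGAA or TTCNNGAANNTTC), where a match of 3 units holds overlapping matches of 2 units. Of all 32851 windows of this length 15.1% held a match of 2 units and 0.603% a match of 3 units. The windows below are written 5′ to 3′ on the gene's strand with the matches in capitals. Hspa1a, Hspb1 and Bag3 are shown because their signals differed between arrays by the most among these genes, and Hsph1 and Hspe1 because their windows hold matches of 3 units. They lie at chr17:34972107-34972406 on the minus strand (Hspa1a), chr5:135887669-135887968 on the plus strand (Hspb1), chr7:128523333-128523632 on the plus strand (Bag3), chr5:149636287-149636586 on the minus strand (Hsph1) and chr1:55087898-55088197 on the plus strand (Hspe1).
Hspa1a: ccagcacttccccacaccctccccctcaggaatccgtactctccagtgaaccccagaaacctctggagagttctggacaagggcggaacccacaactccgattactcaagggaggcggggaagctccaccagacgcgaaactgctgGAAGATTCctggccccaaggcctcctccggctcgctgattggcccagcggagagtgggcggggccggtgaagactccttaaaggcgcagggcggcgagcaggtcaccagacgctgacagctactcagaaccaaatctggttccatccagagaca
Hspb1: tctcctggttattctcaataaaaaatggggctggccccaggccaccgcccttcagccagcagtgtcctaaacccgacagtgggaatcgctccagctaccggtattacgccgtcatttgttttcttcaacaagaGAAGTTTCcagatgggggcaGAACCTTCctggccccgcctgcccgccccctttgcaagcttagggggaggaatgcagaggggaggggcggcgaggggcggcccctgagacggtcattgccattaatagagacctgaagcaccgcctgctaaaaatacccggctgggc
Bag3: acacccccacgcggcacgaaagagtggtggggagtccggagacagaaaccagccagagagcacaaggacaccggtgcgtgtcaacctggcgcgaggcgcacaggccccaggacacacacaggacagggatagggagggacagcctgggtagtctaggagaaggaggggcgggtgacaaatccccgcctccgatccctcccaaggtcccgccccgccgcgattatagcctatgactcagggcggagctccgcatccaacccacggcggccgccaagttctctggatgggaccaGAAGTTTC
Hsph1: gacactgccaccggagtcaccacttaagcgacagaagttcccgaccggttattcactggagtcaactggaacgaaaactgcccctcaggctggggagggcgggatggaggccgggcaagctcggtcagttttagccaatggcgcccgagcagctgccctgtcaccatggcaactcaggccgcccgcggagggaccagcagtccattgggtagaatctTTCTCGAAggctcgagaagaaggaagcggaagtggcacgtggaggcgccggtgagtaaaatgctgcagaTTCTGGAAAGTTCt
Hspe1: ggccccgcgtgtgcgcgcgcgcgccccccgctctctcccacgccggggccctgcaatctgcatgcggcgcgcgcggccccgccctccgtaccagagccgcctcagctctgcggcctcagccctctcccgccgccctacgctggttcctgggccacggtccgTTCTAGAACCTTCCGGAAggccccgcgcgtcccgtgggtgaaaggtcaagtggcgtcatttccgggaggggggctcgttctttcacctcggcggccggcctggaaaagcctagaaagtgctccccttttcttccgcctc

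The windows of Hspa1a and Hspa1b, with the Hspa1b window at chr17:34959189-34959488 on the same strand, had 296 of 300 bases in common (98.7%). Counted from the 5′ end of the window and with the base of Hspa1a first, they differed by C44T, T47C, T249G and C276T. Each held 1 match of 2 units, with the same letters, that began at position -104 from the start. The Hspb1 window held 2 matches of 2 units, which began at positions -117 and -97, and the Bag3 window 1, which began at position 42. Both Hsph1 windows, which overlap, held 3 matches of 2 units and 1 of 3 units, with the 3-unit match downstream of the start. The Hspe1 window held 3 matches of 2 units and 2 of 3 units, all overlapping. Hspd1 and Hspe1 lie head to head, and 285 bases of the Hspe1 window are also in 1 of the 2 Hspd1 windows, on the opposite strand, with the same matches. The other Hspd1 window and both Dnajb1 windows held 0 matches. A match is only a run of letters, and occupancy was not measured. The map of the windows shows where the matches lie.

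**Figure D1:**
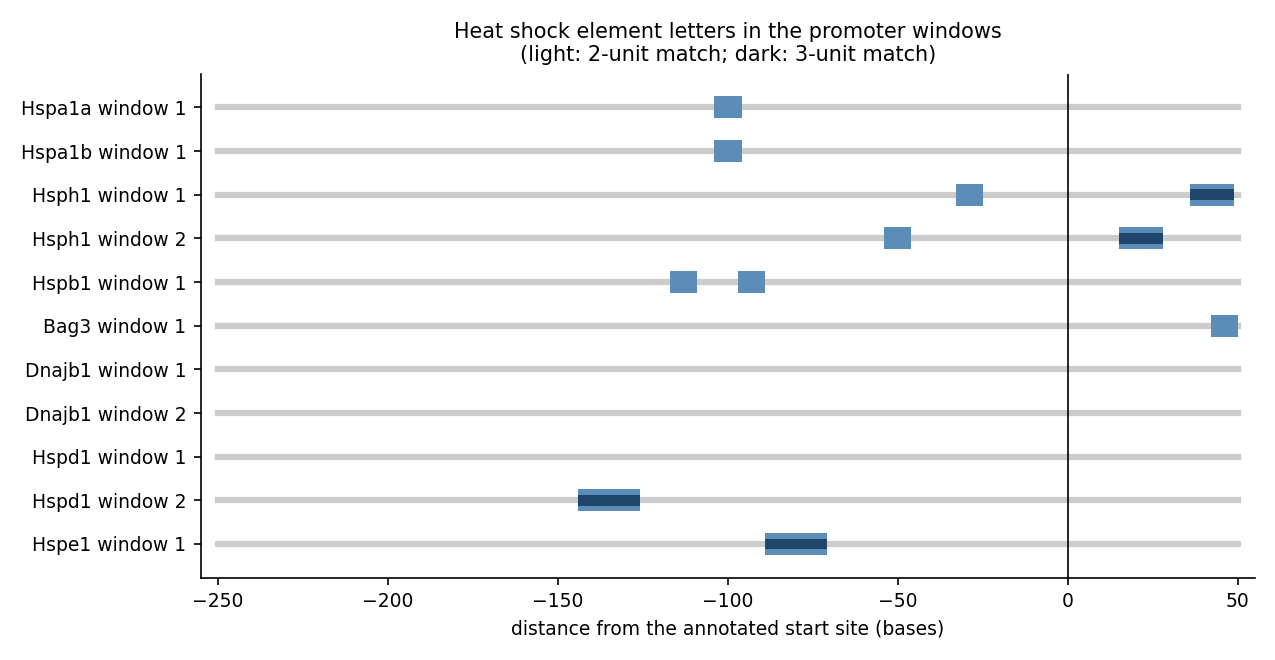
Heat shock element letters in the 11 promoter windows of 8 heat shock genes, by distance in bases from the annotated start site (0). Light blocks are matches of 2 units and dark blocks matches of 3 units; the 2 Dnajb1 windows and 1 of the 2 Hspd1 windows have 0 matches.

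Retinas exposed to 4-OHT were set against vehicle to find which of these genes differed with the drug. Hspa1a, Hspb1 and Bag3 were at least 2-fold higher on the 4-OHT array and the other 6 measured genes were within 2-fold of vehicle. The count was therefore 3 of 9 higher, against 7.75% of the 22084 genes measured in this comparison, and 0 of 9 lower, against 3.14%. The median log2 difference of the 9 genes was 0.09, beside -0.06 over all genes measured.

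Hspa1a encodes the stress-inducible cytosolic HSP70, present at low levels in most unstressed cells. Its relative signal was 1.096 with 4-OHT plus vitamin E, 3.34 with 4-OHT plus lutein, 8.04 with 4-OHT and 1.32 with vehicle. The 4-OHT array was the highest, the lutein array was between, and the vitamin E and vehicle arrays were the lowest. The 4-OHT signal was 6.08-fold that of vehicle (log2 difference 2.60), which ranked 137 from the highest of 22084 genes. Each neighbour in this order differed by more than the spot SD, the closest pair being vitamin E and vehicle, with a log2 difference of -0.27.

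Hspb1 encodes a small heat shock protein that binds unfolding proteins without ATP and keeps them from aggregating. Its relative signal was 1.64 with 4-OHT plus vitamin E, 3.085 with 4-OHT plus lutein, 5.93 with 4-OHT and 1.11 with vehicle. The 4-OHT array was again the highest and vehicle the lowest, with vitamin E closer to vehicle than lutein was. The 4-OHT signal was 5.34-fold that of vehicle (log2 difference 2.42, rank 188 from the highest). The array's design places this probe at chr13:45173742-45173801 of mm9, although the gene is on chromosome 5 and its own RefSeq mRNA is listed for the probe.

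Bag3 encodes a co-chaperone that binds HSP70 and small heat shock proteins and directs their clients to autophagy. Its relative signal was 0.270 with 4-OHT plus vitamin E, 0.621 with 4-OHT plus lutein, 0.656 with 4-OHT and 0.190 with vehicle. The lutein and 4-OHT arrays stood together and had a log2 difference of -0.08, smaller in size than the spot SD, while the vitamin E and vehicle arrays were lower. The 4-OHT signal was 3.45-fold that of vehicle (log2 difference 1.79, rank 535 from the highest). With normexp background correction the log2 difference was 1.305. The probe lies at chr7:135690281-135690340 of mm9, on the plus strand.

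**Figure D2:**
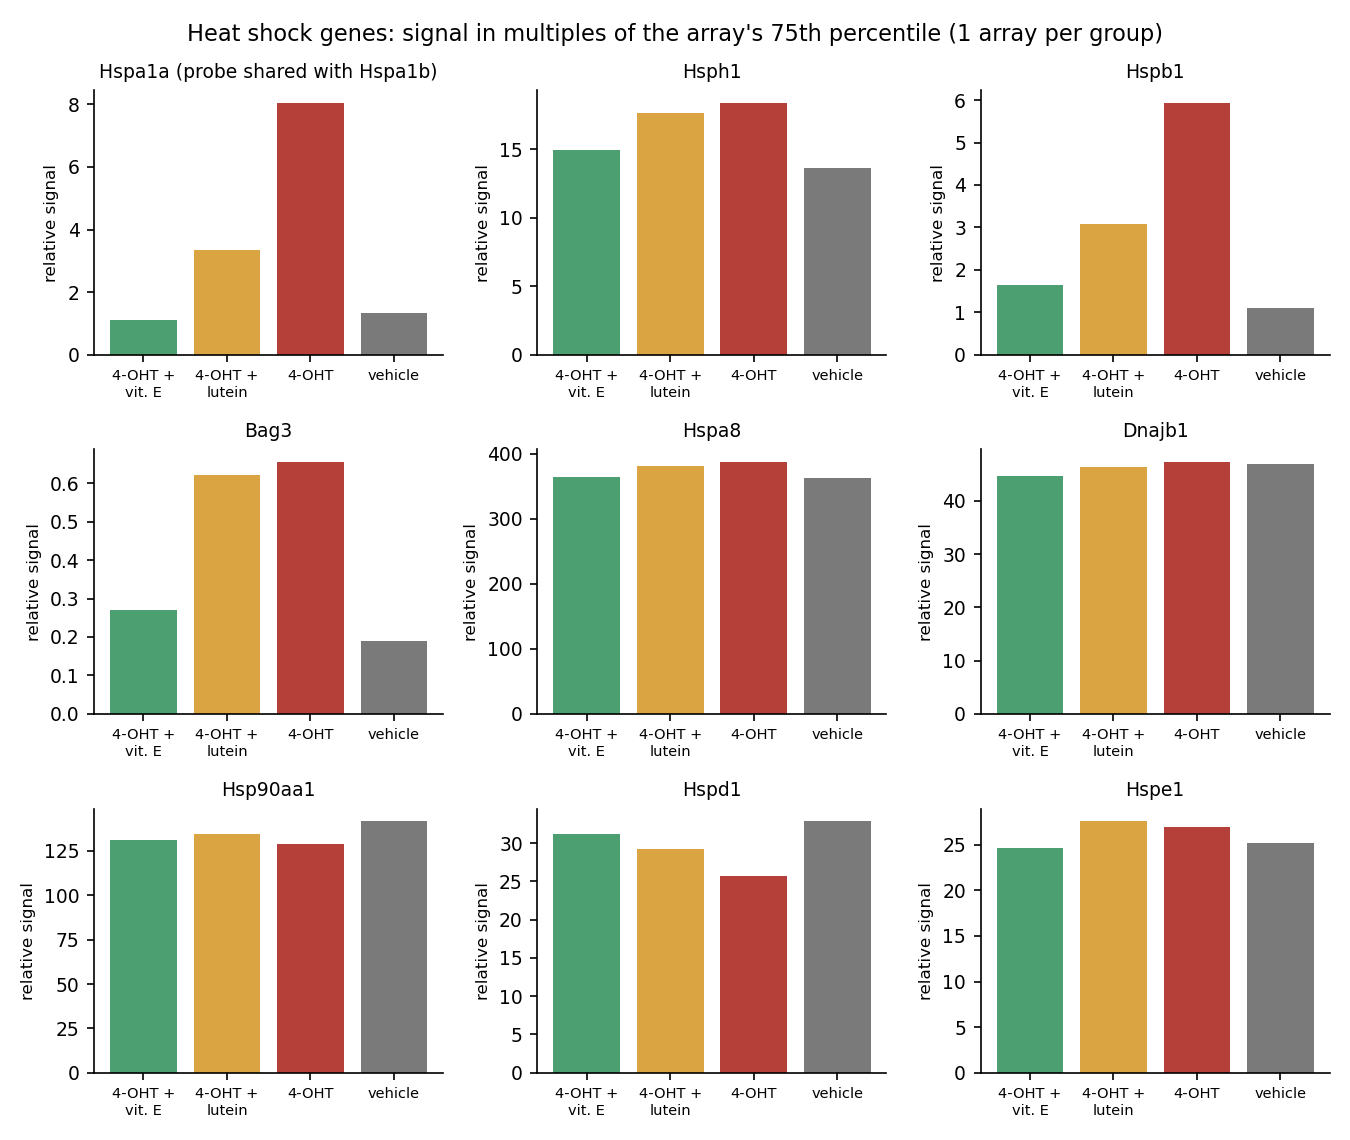
Relative signal (multiples of the array's 75th percentile, linear axes from 0) of the brightest probe of each of the 9 measured heat shock genes on the 4 arrays, 1 bar per array, with no error bars because each group is 1 array. Hspa1a and Hspb1 are highest with 4-OHT, and Bag3 is nearly as high with lutein as with 4-OHT alone. Hspa8, Dnajb1 and Hsp90aa1 have bars of nearly equal height.

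Hsph1, an HSP110 protein that acts as a nucleotide exchange factor for HSP70, was measured by 2 probes. The brighter one had relative signals of 14.9 with 4-OHT plus vitamin E, 17.6 with 4-OHT plus lutein, 18.35 with 4-OHT and 13.6 with vehicle. The other probe had 5.00, 5.86, 7.02 and 4.315 in the same order of arrays. Both probes were highest with 4-OHT and lowest with vehicle, and neither reached 2-fold. The log2 difference of 4-OHT from vehicle was 0.43 by the brighter probe, 1.35-fold, and 0.70 by the other. The 2 probes lie at chr5:150419744-150419803 and chr5:150420110-150420169 of mm9.

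Hspa8, the constitutive cytosolic HSP70, was measured by 3 probes. The brightest had relative signals of 364.4 with 4-OHT plus vitamin E, 381.1 with 4-OHT plus lutein, 386.9 with 4-OHT and 362.7 with vehicle. The 4 arrays were thus close to each other, and the log2 difference of 4-OHT from vehicle was 0.09, within the spot SD. The 3 probes gave values from 0.02 to 0.09 for that difference. The design places all 3 on chromosome 5 of mm9, while the gene is on chromosome 9, and lists the gene's own mRNA for each.

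Dnajb1 encodes a J-domain partner of HSP70 that is itself stress-inducible. Its relative signal was 44.6 with 4-OHT plus vitamin E, 46.3 with 4-OHT plus lutein, 47.3 with 4-OHT and 46.9 with vehicle. The 4 arrays did not separate, and the log2 difference of 4-OHT from vehicle was 0.01. The Dnajb1 probe lies at chr8:86135660-86135719 of mm9.

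Hsp90aa1, the inducible cytosolic HSP90, had relative signals of 131.3 with 4-OHT plus vitamin E, 134.5 with 4-OHT plus lutein, 129.1 with 4-OHT and 141.8 with vehicle at its detected probe (chr12:111929248-111929307 of mm9). Vehicle was the highest of the 4 by a small margin, and the log2 difference of 4-OHT from vehicle was -0.13, within the spot SD. It was 1 of 2 heat shock genes with a negative difference in this comparison.

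The other was Hspd1, the mitochondrial chaperonin HSP60, which folds imported proteins inside a closed chamber. Its relative signal was 31.2 with 4-OHT plus vitamin E, 29.2 with 4-OHT plus lutein, 25.7 with 4-OHT and 32.9 with vehicle. The 4-OHT array was the lowest and vehicle the highest. The log2 difference of 4-OHT from vehicle was -0.36, larger than the spot SD of 0.146 and short of 2-fold. Of all genes measured 26.5% were as low or lower, and under quantile normalization the Hspd1 difference was -0.19. Its probe is placed at chr12:26835760-26835819 of mm9, while the gene is on chromosome 1.

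Hspe1, the co-chaperonin HSP10 that closes that chamber, had relative signals of 24.6 with 4-OHT plus vitamin E, 27.6 with 4-OHT plus lutein, 26.9 with 4-OHT and 25.2 with vehicle at the brightest of its 3 probes (placed at chr5:20559061-20559120 of mm9). The log2 difference of 4-OHT from vehicle was 0.09 by that probe and ranged from -0.02 to 0.09 over the 3, so the probes do not share a sign. The brightest probe and 1 of the others overlap by 57 bases, with 1 differing base, and are not independent measurements. The 2 genes of the head-to-head pair therefore gave values of -0.36 for Hspd1 and 0.09 for Hspe1. Over the 9 detected probes of Hspa8, Dnajb1, Hsp90aa1, Hspd1 and Hspe1 the log2 difference of 4-OHT from vehicle ran from -0.36 to 0.09. Scaling on spike-in probes shifted the all-gene median by -0.14 in this comparison and gave -0.05 for Hspa8, -0.13 for Dnajb1 and -0.05 for Hspe1, so the direction of these 3 genes depends on the scaling.

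**Figure D3:**
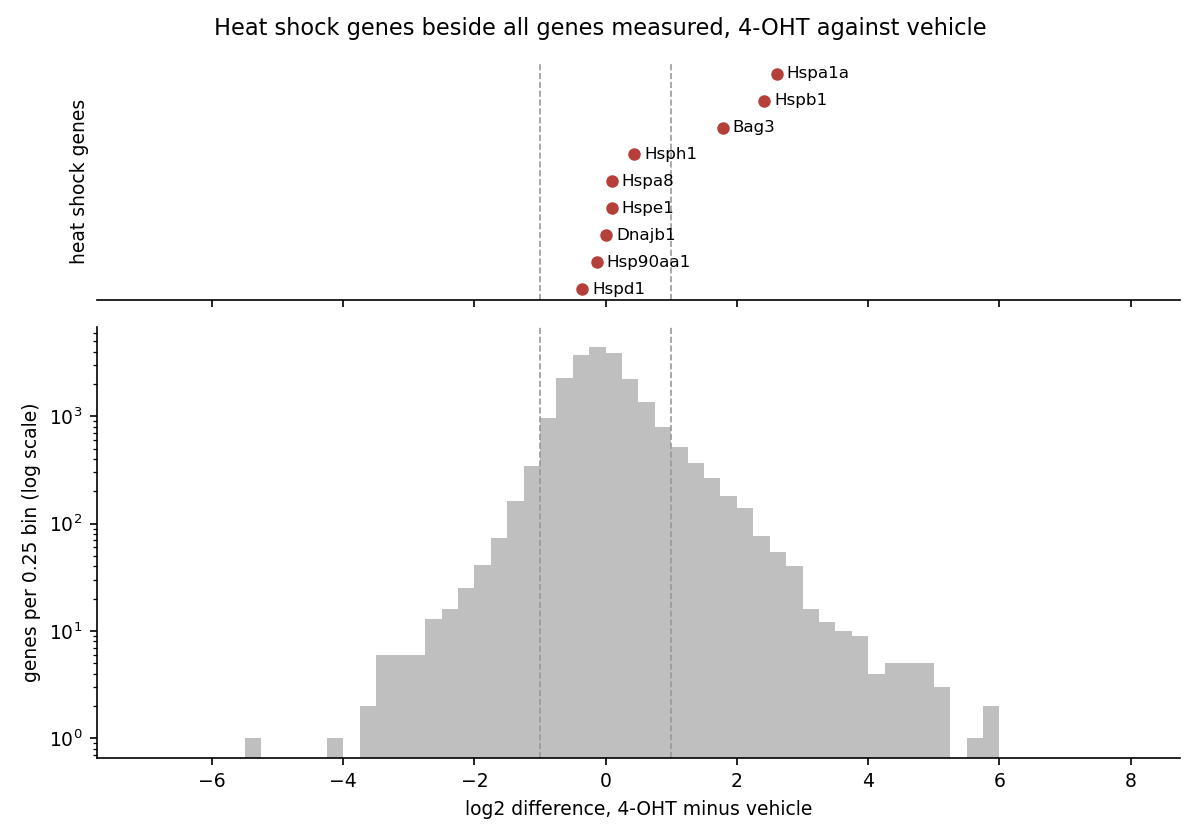
Log2 difference of 4-OHT from vehicle for the 9 measured heat shock genes (points, above) and for all 22084 genes measured (below, genes per bin of 0.25 on a log axis). Dashed lines mark 2-fold; Hspa1a, Hspb1 and Bag3 lie beyond the upper line and the other 6 genes lie between the lines.

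The array of 4-OHT with vitamin E was set against 4-OHT alone to ask which genes differed when the antioxidant was added. This comparison, that of lutein with 4-OHT and that of 4-OHT with vehicle share the same 4-OHT array. A gene read high on that array is raised against vehicle and lowered in the others, so these are not independent results. Hspa1a, Hspb1 and Bag3 were at least 2-fold lower with vitamin E, 3 of 9 against 8.81% of 22160 genes, and 0 of 9 were at least 2-fold higher, against 1.48%. Hspa1a was 7.33-fold lower (log2 difference -2.87, rank 134 from the lowest of 22160 genes). Hspb1 was 3.61-fold lower (-1.85, rank 627 from the lowest) and Bag3 2.43-fold lower (-1.28, rank 1346 from the lowest). The Bag3 difference was only just past 2-fold with normexp background correction, at -1.0045, and on spike-in probes, at -1.06. The median of the 9 genes was -0.13, beside 0.08 over all genes measured.

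Hsph1 was short of 2-fold in the same comparison, with log2 differences of -0.30 and -0.49 by its 2 probes. Hspd1 was 0.28 higher on the vitamin E array, and 0.11 higher under quantile normalization. Hspa8 at -0.09, Dnajb1 at -0.08, Hsp90aa1 at 0.02 and Hspe1 at -0.13 were within the spot SD of 0.143 by their brightest probes. When the arrays were scaled on spike-in probes, the median of all genes moved by 0.21, and the differences of Hspa8, Dnajb1 and Hspe1 became positive.

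Adding lutein to 4-OHT was compared in the same way. Hspa1a was 2.41-fold lower with lutein than with 4-OHT alone (log2 difference -1.27, rank 456 from the lowest of 21997 genes), and it was the 1 gene of 9 at least 2-fold lower, against 3.84% of genes. None was at least 2-fold higher, 0 of 9 against 1.15%. Hspb1 was 1.92-fold lower (-0.94), short of the limit, although under quantile normalization it passed it at -1.06. Bag3 differed by -0.08, within the spot SD of 0.142. Hsph1 had -0.06 and -0.26 by its 2 probes, and the other 5 genes ran from -0.04 to 0.19 over their 9 detected probes, with Hspd1 the highest.

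**Figure D4:**
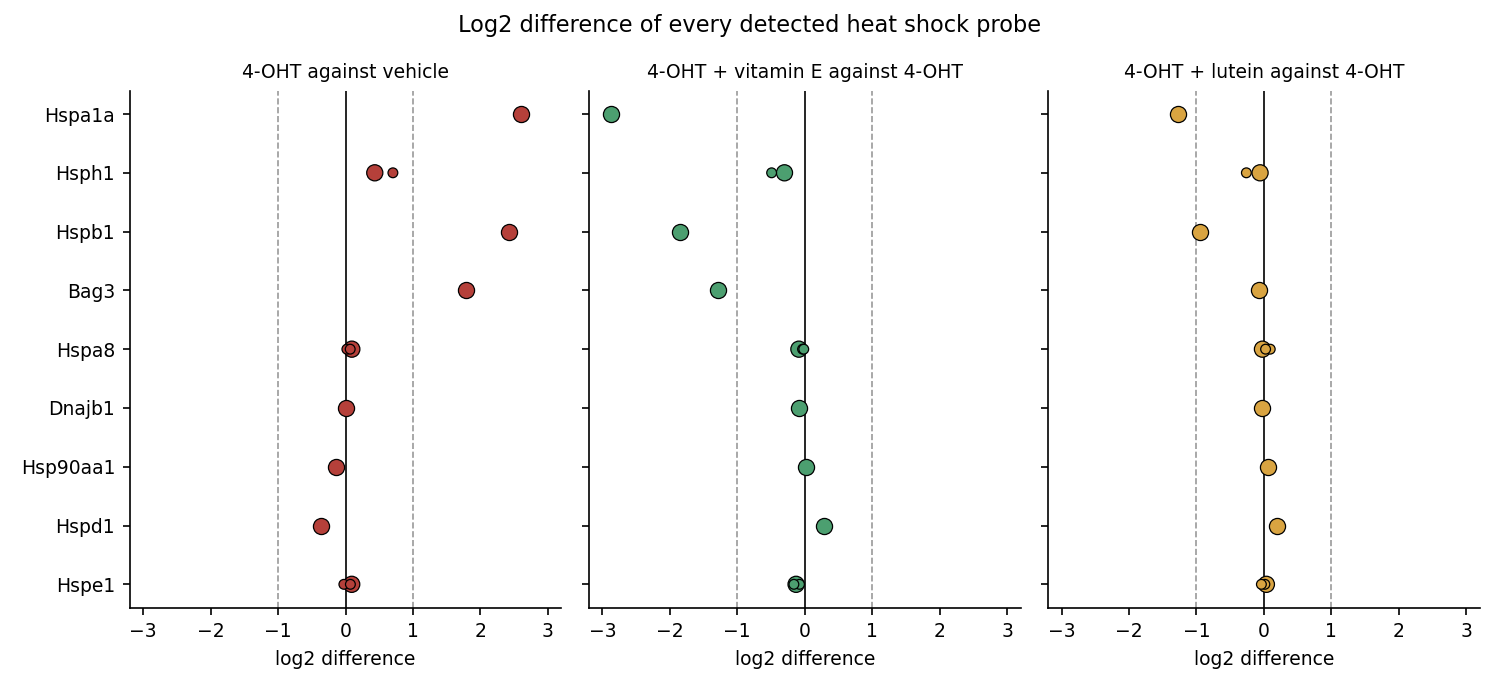
Log2 difference of each of the 14 detected heat shock probes for 4-OHT against vehicle, 4-OHT with vitamin E against 4-OHT, and 4-OHT with lutein against 4-OHT; large points are the brightest probe of a gene, small points its other probes, and dashed lines mark 2-fold. Hspa1a lies beyond 2-fold in each panel, Hspb1 and Bag3 in the first pair, and the probes of Hspa8 and of Hspe1 lie close to 0 in each.

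Vitamin E and lutein were also compared with each other under 4-OHT, at the concentrations used, which differ (400 µM and 200 nM). Hspa1a was 3.05-fold lower with vitamin E than with lutein (log2 difference -1.61) and Bag3 2.30-fold lower (-1.20). These were 2 of 9 genes, against 3.66% of 21438 genes at least 2-fold lower, and 0 of 9 were at least 2-fold higher, against 0.494%. Hspb1 was 1.88-fold lower (-0.91), and the other 6 genes ran from -0.24 for Hsph1 to 0.10 for Hspd1 by their brightest probes. With normexp background correction the Bag3 difference was -0.93 and short of 2-fold.

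Each supplemented array was finally set against vehicle. These comparisons and that of 4-OHT alone share the vehicle array, so their values are given side by side and not as independent results. For 4-OHT plus vitamin E the count at least 2-fold above vehicle was 0 of 9, against 1.09% of 21364 genes, and that at least 2-fold below was 0 of 9, against 1.98%. Hspb1 was 1.48-fold higher (log2 difference 0.57), Bag3 1.42-fold higher (0.51) and Hspa1a 1.21-fold lower (-0.27). With normexp background correction the Bag3 difference was 0.30. The median of the 9 genes was -0.04, beside -0.01 over all genes measured.

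For 4-OHT plus lutein the count at least 2-fold above vehicle was 3 of 9, against 3.43% of 21352 genes, and that at least 2-fold below was 0 of 9, against 1.49%. Bag3 was 3.27-fold higher (log2 difference 1.71, rank 240 from the highest of 21352 genes), Hspb1 2.78-fold higher (1.48, rank 346) and Hspa1a 2.53-fold higher (1.34, rank 408). In this comparison Bag3 ranked above Hspa1a, whereas with 4-OHT alone Hspa1a ranked above Bag3. With normexp background correction that order turned round for lutein against vehicle, with 1.23 for Bag3, 1.26 for Hspa1a and 1.36 for Hspb1. Hsph1 was 0.38 and 0.44 higher on the log2 scale by its 2 probes, and Hspd1 was at -0.17, the lowest of the 9. The median of the 9 genes was 0.13, beside -0.01 over all genes measured.

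Markers of cell types were read on the same arrays. The summed relative signal of the 7 rod markers was 854.8 with 4-OHT plus vitamin E, 647.2 with 4-OHT plus lutein, 504.8 with 4-OHT and 1064 with vehicle. Nrl made up 455.4, 368.4, 302.2 and 507.2 of these sums. The genes differed unequally between 4-OHT and vehicle. Gnat1 was 40.8-fold lower with 4-OHT, Cnga1 4.85-fold and Rcvrn 4.32-fold, and Nrl, Nr2e3, Pde6b and Sag were less than 2-fold lower. The sum was lowest on the 4-OHT array, where Hspa1a and Hspb1 were highest. Bag3 was nearly as high with lutein as with 4-OHT alone. The 7 Müller glia markers, of which Gfap fell short of well above background on the vitamin E and vehicle arrays, summed to 38.2, 52.0, 46.8 and 34.3 in the same order of arrays. Vim, an intermediate filament gene, carried most of the difference of the sum between 4-OHT and vehicle, at 17.21, 31.03, 27.96 and 15.06. On the log2 scale Sox9 at 1.26, past 2-fold, and Rlbp1 at 0.21 were also higher with 4-OHT than with vehicle. Gfap was higher by at least 0.35. Glul at -0.24, Slc1a3 at -0.22 and Aqp4 at -0.74 were lower, and the median of the 7 was 0.21. Of 6 pigment epithelium markers 4 were detected on each array and Rpe65 and Best1 on 0 arrays, with sums of 8.79, 10.69, 11.6 and 3.03. That sum followed Dct, a melanin synthesis gene, at 7.57, 9.44, 10.66 and 1.98, while Tyrp1 at -0.13, Pmel at -0.30 and Mitf at -0.12 were slightly lower with 4-OHT than with vehicle, and the median of the 4 detected genes was -0.13. Of 5 bipolar markers all were detected, with sums of 33.0, 32.3, 49.4 and 34.6, of which Cabp5 made up 4.62, 9.26, 28.5 and 7.22, and the median log2 difference of the 5 between 4-OHT and vehicle was -0.43. The part of cell composition in the heat shock differences was not tested. Of 6 microglia and leukocyte markers Csf1r and C1qb were well above background on all 4 arrays, and Ptprc, Cx3cr1, Aif1 and C1qa on 0 arrays. The 6 summed to between 2.17 and 2.62, and Csf1r, at 2.02 to 2.42, made up most of that. Lens, which is rich in small heat shock proteins, had 1 to 3 of 6 markers detected per array and sums of 0.188 to 0.249, with Crygs and Lim2 detected on 0 arrays.

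Other genes of the heat shock and chaperone network were read from 10 lists holding 120 genes. For 4-OHT against vehicle 7.75% of all genes measured were at least 2-fold higher and 3.14% at least 2-fold lower. The lists are short, so beside these shares a count of 0 says little about a family. Among the heat shock factors and their binding proteins 3 of 7 were measured for 4-OHT against vehicle and 0 reached 2-fold (median log2 difference 0.17, beside -0.06 over all genes). Hsf1, the master regulator of the heat shock response, had relative signals of 3.70 with 4-OHT plus vitamin E, 4.36 with 4-OHT plus lutein, 4.69 with 4-OHT and 3.93 with vehicle. As scaled here it was highest with 4-OHT, by a log2 difference of 0.25 from vehicle. On spike-in probes that difference was 0.11, within the spot SD of 0.146. Hsbp1, which binds HSF1 trimers, was lowest with 4-OHT and differed from vehicle by -0.46. Hsf3, a further heat shock factor of mice, was well above background with vitamin E alone among the 4 arrays. It was at least 2.33-fold higher there than with 4-OHT and at least 2.16-fold higher than with vehicle. Its measured relative signals were 0.111 with vitamin E, 0.0122 with lutein, 0.0102 with 4-OHT and 0.0113 with vehicle. This detection rests on 1 array, and Hsf4, a dim gene of the same list, was also detected with vitamin E alone, at 0.0548.

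Among the 8 other HSP70 and HSP110 proteins 0 reached 2-fold for 4-OHT against vehicle (median -0.20), and the named members Hspa14, a ribosome-associated HSP70, and Hspa4, an HSP110-type exchange factor, had -0.55 and 0.20. Of 16 measured J-domain proteins 0 reached 2-fold (median -0.13). The highest of these was Dnajc5, the cysteine string protein of synaptic vesicles, with relative signals of 125.6 with 4-OHT plus vitamin E, 151.5 with 4-OHT plus lutein, 250.5 with 4-OHT and 137.5 with vehicle. The 4-OHT array stood above the others, with log2 differences of 0.87 from vehicle and -0.996 for vitamin E against 4-OHT, just short of 2-fold. Dnaja1, the cytosolic J-domain partner of HSP70, had 0.17 for 4-OHT against vehicle.

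Of the 8 other small heat shock proteins 4 were measured for 4-OHT against vehicle and 1 was at least 2-fold higher, against 7.75% of all genes measured. That gene was Hspb8, the small heat shock protein that forms a complex with BAG3, whose measured relative signals were 0.0372 with 4-OHT plus vitamin E, 0.0817 with 4-OHT plus lutein, 0.111 with 4-OHT and 0.0223 with vehicle. It was well above background with lutein and 4-OHT and not with vitamin E or vehicle. It was at least 2.155-fold higher with 4-OHT than with vehicle, although the bound on its log2 difference, 1.11 here, was 0.84 under quantile normalization, 0.97 on spike-in probes and 0.56 with normexp background correction. With vitamin E it was at least 2.58-fold lower than with 4-OHT. Cryab, the alpha-B crystallin, had a log2 difference of -0.34 between 4-OHT and vehicle, at relative signals of 5.23 with 4-OHT plus vitamin E, 6.64 with 4-OHT plus lutein, 5.835 with 4-OHT and 7.41 with vehicle. Hspb6 had -0.10.

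The 8 other BAG-domain and HSP70 exchange or binding factors had 0 members past 2-fold for 4-OHT against vehicle (median -0.27), with -0.21 for Bag6, which guides tail-anchored proteins, and -0.32 for Bag1, an HSP70 exchange factor. The 16 genes of HSP90 and its co-chaperones had 0 (median -0.30), with 0.47 for Hsp90ab1, the constitutive HSP90, and -0.15 for Cdc37, the co-chaperone for kinases. The 14 genes of the CCT chaperonin and prefoldin had 0, and all 14 lay between -0.72 and -0.05 (median -0.35), including the subunits Cct5 at -0.07 and Cct2 at -0.19. Under quantile normalization 2 of these 14 were above 0 and their median was -0.16. The 14 ER chaperones had 0 (median -0.14, and 0.04 under quantile normalization), with 0.63 for the ER-resident HSP70 Hspa5 and -0.32 for the ER-resident HSP90 Hsp90b1.

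Of the 19 other mitochondrial chaperones and proteases 0 reached 2-fold for 4-OHT against vehicle (median -0.29). Spg7, a subunit of a protease of the inner membrane, came closest, with relative signals of 52.0 with 4-OHT plus vitamin E, 40.8 with 4-OHT plus lutein, 32.2 with 4-OHT and 64.3 with vehicle. The 4-OHT array was the lowest and vehicle the highest, as for Hspd1, with a log2 difference of -0.9999, just short of the limit, and it passed the limit on spike-in probes at -1.14 and with normexp at -1.01. Lonp1, the matrix protease, had the other sign, 0.61.

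The list named ubiquitin and other proteotoxic stress genes, which mixes stress genes of several kinds, was the one with several large values. With 4-OHT 4 of 9 were at least 2-fold higher than with vehicle (median 0.93), against 7.75% of all genes measured. Under quantile normalization 6 of 9 were. The list was chosen with earlier results of these data known, so its count is a description only. The 4 genes past 2-fold as scaled here were the metallothioneins Mt2 and Mt1, the growth arrest gene Gadd45b and Hmox1, which encodes heme oxygenase. The polyubiquitin gene of the list, Ubb, was not among them. Mt2 had relative signals of 7.59 with 4-OHT plus vitamin E, 87.8 with 4-OHT plus lutein, 156.7 with 4-OHT and 5.26 with vehicle. Mt1 had log2 differences from vehicle of 0.79 with vitamin E, 3.76 with lutein and 4.47 with 4-OHT alone. For Gadd45b they were 0.63, 3.29 and 4.17, and for Hmox1 0.75, 3.13 and 3.47. All 4 genes were thus high with lutein and with 4-OHT and within 2-fold of vehicle with vitamin E. Against 4-OHT alone, 4 of 9 genes were at least 2-fold lower with vitamin E, against 8.81% of all genes measured. With lutein 0 of 9 were, against 3.84%. For 4-OHT against vehicle the polyubiquitin gene Ubb had -0.02 and Cirbp, a cold-inducible RNA-binding protein, -0.75.

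**Figure D5:**
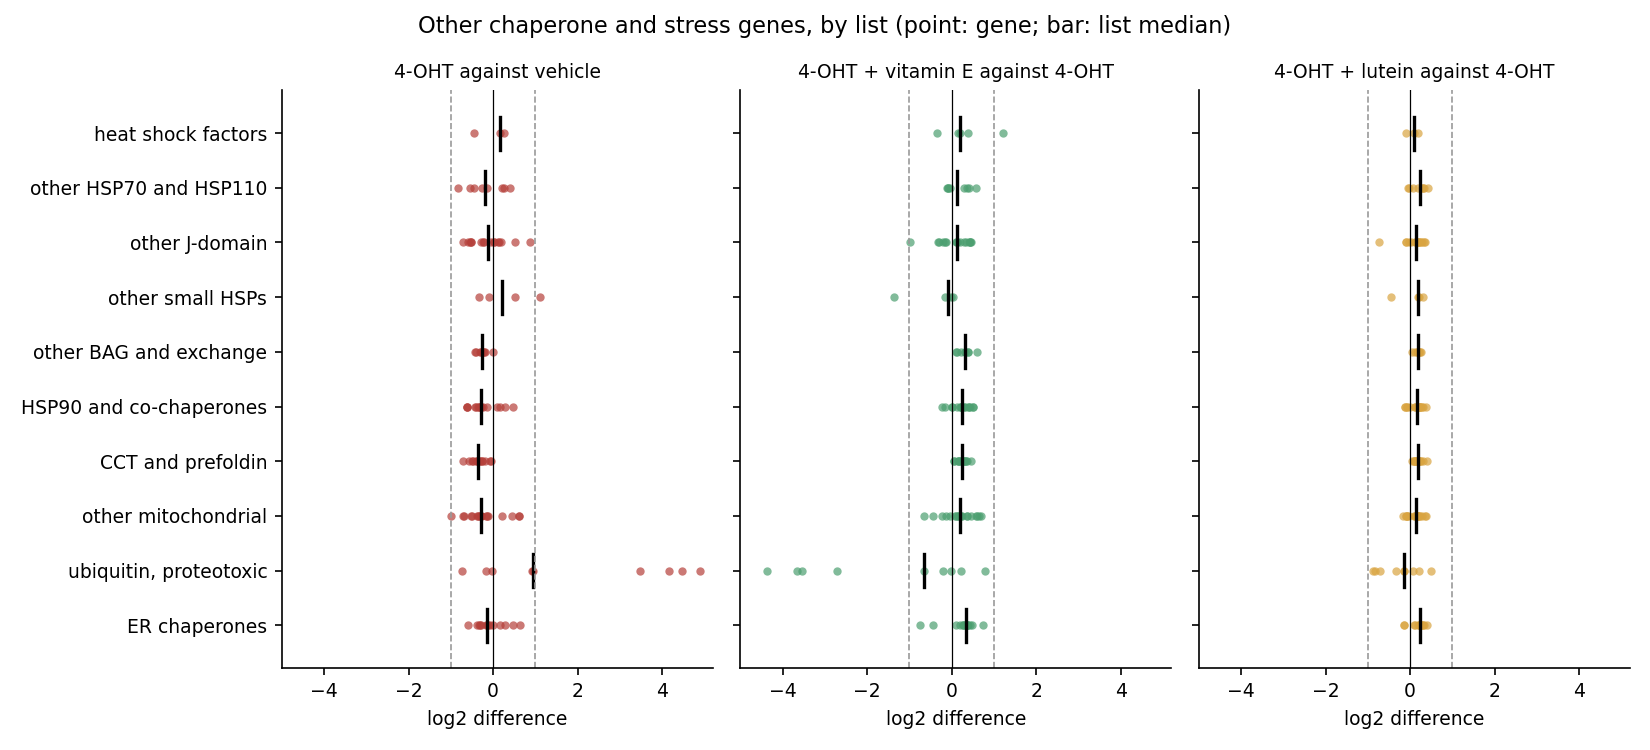
Log2 differences of the measured genes of 10 other chaperone and stress lists (points) with the list median (bar) for 4-OHT against vehicle, 4-OHT with vitamin E against 4-OHT, and 4-OHT with lutein against 4-OHT; dashed lines mark 2-fold. The 4 far points in the ubiquitin and proteotoxic stress list are Mt2, Mt1, Gadd45b and Hmox1, on opposite sides of 0 in the first pair of panels.

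The genes whose pattern over the 4 arrays was most like that of Hspa1a were found by the Euclidean distance between their 3 log2 differences from vehicle and those of Hspa1a, over 13064 genes well above background on all 4 arrays. The 6 closest were Tcap, a sarcomere protein of muscle (distance 0.28), Vgf, a secreted neuronal peptide precursor (0.44), Cd68, a lysosomal membrane protein of macrophages (0.445), Actc1, the cardiac muscle actin (0.48), Mideas, a subunit of a histone deacetylase complex (0.49), and Slc14a1, a urea transporter (0.55). Tcap had log2 differences from vehicle of -0.50 with vitamin E, 1.25 with lutein and 2.48 with 4-OHT alone, beside -0.27, 1.34 and 2.60 for Hspa1a. None of the other 8 measured heat shock genes was among the 6. With only 6 places among 13064 genes, that absence says nothing about how like Hspa1a they were.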

How the data were processed

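RNA of 4 pools of 3D-retinas, 1 array per group, was labelled with Cy3 and hybridised to 1-colour arrays of 1 design. The authors deposited each array's scanner output, whose processed intensity was background-subtracted and detrended by Agilent Feature Extraction 10.7.3.1, per the file headers, and not scaled between arrays. A value table, also deposited by the authors, gives the same intensity after division by 1 number per array (468.9 with vitamin E, 479.2 with lutein, 434.1 with 4-OHT and 494.2 with vehicle, which matched 100% of spots within 1%), neither logged nor centred, with column medians of 0.0736, 0.0847, 0.0949 and 0.0794, and served as an alternative. The lutein file had been saved with fewer digits and some altered gene names, so gene names were taken from the vehicle array.

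Control spots and 137 to 164 outlier spots per array were left out. Intensity was log2-transformed, the array's 75th percentile over gene spots was subtracted, and a gene's brightest probe on average was used in counts. Genes had to be detected (well above background) on 1 array of a comparison or both. A dim value that lay below the faintest detected gene spot of its array was raised to that spot's signal, and such a fold is given as a lower bound ("at least"). Symbols were updated for the 28331 of 55681 probes with an accession in the RefSeq table (GRCm38.p6), and others kept the file's name. The number of arrays sets the precision.

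Members and gene lists were chosen with earlier results of these data known. A marker gene and a gene of 1 list are not reported here and were left out of those lists. All members were named; from each other list, up to 4 genes at least 2-fold different in any of the 6 comparisons, plus up to 2 by mean signal; and the 6 genes most like the member of widest range. Steps were tested on simulated data. The tools were limma 3.58.1 in R 4.3.3 and, in Python 3.11.15, matplotlib 3.10.9, pandas 2.3.3 and NumPy 2.4.6.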

Additional observations from a re-analysis of the deposited data

How the results depend on the processing

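The counts and medians of the 9 heat shock genes were recomputed under 10 alternatives: normexp background correction with an offset of 50, quantile normalization, scaling on the 7 of 10 spike-in probes detected on all arrays, scaling on the median of detected probes, averaging all probes of a gene, requiring both arrays to detect it, dropping the filter, the authors' value table, and limits of 1.5-fold and 4-fold. No paired analysis was possible because there was 1 array per group. For 4-OHT against vehicle the median was 0.28 under quantile normalization. For vitamin E against 4-OHT the median was -0.30 under quantile normalization and 0.086 on spike-in probes, and 1 gene was past 4-fold. For lutein against 4-OHT 2 genes passed under quantile normalization and 2 at 1.5-fold, and 0 at 4-fold. At 4-fold 0 genes passed for lutein against vehicle and for vitamin E against lutein, and under normexp 1 gene passed in that last comparison. The cause was not tested. Every other count stayed within 1.5 times the reported one and every other median within the spot SD.

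Of 432 recomputed single-gene differences 409 moved by less than the spot SD and 23 by at least that, 26 turned in sign, all of them short of 2-fold, and 3 crossed 2-fold. The 3 were Hspb1 for lutein against 4-OHT under quantile normalization, Bag3 for vitamin E against lutein under normexp, and Hsp90aa1 for vitamin E against 4-OHT when its undetected probe was averaged in, by a shift of 1.09. Scaling on spike-in probes moved the median of all genes by -0.14 for 4-OHT against vehicle, 0.21 for vitamin E against 4-OHT, and 0.11 for lutein against 4-OHT and for vitamin E against lutein. Normexp moved Bag3 by 0.48 for 4-OHT against vehicle. The values of the wider gene lists under other scalings and normexp were added after seeing the data.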

Other observations

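Some genes of the wider chaperone lists, chosen after their values were seen, were short of 2-fold in each comparison with vehicle as scaled here. Under quantile normalization Sqstm1 at 1.05 and Serpinh1 at 1.05 passed the limit for 4-OHT against vehicle. Hspa9, the mitochondrial HSP70 that pulls proteins through the import channel, had relative signals of 12.5 with 4-OHT plus vitamin E, 18.7 with 4-OHT plus lutein, 19.8 with 4-OHT and 12.95 with vehicle. The lutein and 4-OHT arrays were high and the vitamin E and vehicle arrays low, with a log2 difference of 0.61 between 4-OHT and vehicle. Sqstm1, the autophagy receptor for ubiquitinated proteins, had 4.59, 6.53, 7.27 and 3.81 in the same order of arrays and differed from vehicle by 0.93 with 4-OHT alone.

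Serpinh1, the collagen-binding chaperone of the ER, differed from that order. Its relative signals were 5.765 with 4-OHT plus vitamin E, 6.06 with 4-OHT plus lutein, 6.65 with 4-OHT and 3.49 with vehicle. All 3 arrays with 4-OHT were above vehicle, by log2 differences of 0.72 with vitamin E, 0.80 with lutein and 0.93 with 4-OHT alone. These differences have no replicate check.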
